A study of Mus musculus with 6 samples.

Results

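The mitochondrial ribosomal protein genes described here are Mrpl35, Mrpl55, Mrpl57, Mrps14, Mrps18c and Mrps5, 6 genes with 1 probe set each. They were chosen by their symbols in a comparison table that the authors deposited, which gives values for 4.41% of the 45101 probe sets of the array, 854 lower and 1135 higher in Gfi1-KD, and names 1512 genes with 1 symbol. The table had been selected by the authors at an unadjusted p under 0.05 between the same groups that are described below. That the groups differ in these 6 genes is therefore a condition of their choice, and the differences are given as values without a test. The symbol in the file for Mrpl57 is Mrp63.

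RNA was taken from whole bone marrow of leukemic adult mice, after lysis of red cells, and each of the 6 samples was measured on 1 Affymetrix mouse expression array. The 3 Gfi1-KD and the 3 Gfi1-KI mice all carried the Vav-1 Nup98/HoxD13 transgene, and the design text states that they had the same age. Vav-1 regulatory sequence drives the fusion gene in blood cells. The labels do not describe the Gfi1 alleles. As background, Gfi1 is a transcriptional repressor of blood cell development; in published mouse lines of these names KI denotes human GFI1 placed at the mouse locus and KD its form with reduced expression, so the Gfi1-KI mice are not wild type. The labels do not say whether the samples came from separate litters or days, so errors measure the spread between these 6 samples. With 3 arrays a group, precision is limited by their number.

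Mitochondria hold their own ribosome, which translates the few proteins encoded in mitochondrial DNA, all of them parts of the respiratory chain and the ATP synthase. Its small subunit (proteins named Mrps) reads the messenger RNA and its large subunit (Mrpl) joins the amino acids. Its proteins are all encoded in the nucleus, made in the cytosol and imported. Inhibitors of this translation are known to impair respiration in human acute myeloid leukemia cells.

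Signals are given on 2 scales made from the same arrays. RMA and MAS5 are methods that turn the probes of a probe set into 1 signal per array; the RMA signals are log2 values and the MAS5 signals are linear. A MAS5 probe set was tested if its mean log2 signal was at least 6.95, the median of all probe sets that are not controls. Median MAS5 signals of the arrays lay between 117 and 148 on the Gfi1-KD arrays and between 129 and 134 on the Gfi1-KI arrays. The lowest of all 6 was on Gfi1-KD replicate 2 and the highest on Gfi1-KD replicate 3. Over the probe sets tested, Gfi1-KI replicate 2 was least like the rest, with a median Pearson correlation of 0.889 with the other 5 arrays, against 0.912 to 0.949 for each of those. Gfi1 itself was named by no listed probe set, and its level was not analysed here.

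The mean signal of each of the 6 genes was lower in Gfi1-KD marrow than in Gfi1-KI marrow, from 1.19-fold lower for Mrpl57 to 1.45-fold lower for Mrps5 in the RMA signals. The median difference of the 6 was -0.33 on the log2 scale, against 0.14 over all listed probe sets. Of all listed probe sets, 854 (42.9%) were lower in Gfi1-KD, with a median of 1.18-fold lower. In bulk marrow, fewer cells of a type and less RNA per cell cannot be told apart.

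Among the small subunit proteins, Mrps5 (chromosome 2, 127587426 to 127603986, build 38) encodes the counterpart of the bacterial protein S5, which lies near the entry of the messenger RNA. Its log2 RMA signals were 8.28, 8.66 and 8.25 in Gfi1-KD, against 8.76, 9.14 and 8.90 in Gfi1-KI. Its MAS5 signals were 543, 738 and 540.2 in Gfi1-KD, against 864, 848 and 947 in Gfi1-KI. The groups did not overlap on either scale, and Gfi1-KD replicate 2 lay nearest to the Gfi1-KI arrays. The mean RMA signal was 8.40 ± 0.23 over the 3 Gfi1-KD arrays and 8.93 ± 0.19 over the 3 Gfi1-KI arrays (± SD), a log2 difference of -0.54 ± 0.17 (SE), the largest RMA difference of the 6 genes. By the size of its fold it stood at rank 104 of the 854 lower probe sets. All 11 probes matched its RefSeq transcript, and the array annotation in the deposited table also lists 8 other transcripts matched by up to 6 of the probes. Such matches are also listed for Mrps18c (14 transcripts, up to 4 probes) and Mrpl57 (2 transcripts, up to 7 probes). Mrpl35 and Mrpl55 have 1 such transcript each, matched by 6 probes, and Mrps14 has none.

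Mrps18c (chromosome 5, 100798759 to 100804467) encodes a member of the S18 family, of which mammalian mitochondria have several. Its MAS5 signals were 5646, 6790.0 and 5561 in Gfi1-KD, against 7014, 7445 and 8246 in Gfi1-KI. Its log2 RMA mean was 11.73 ± 0.12 over the 3 Gfi1-KD arrays and 12.06 ± 0.12 over the 3 Gfi1-KI arrays (± SD), a 1.26-fold lower level with a log2 difference of -0.33 ± 0.10 (SE). The 2 scales gave nearly the same difference, with -0.34 in the MAS5 signals. Again Gfi1-KD replicate 2 was the highest of its group, 0.05 below the lowest Gfi1-KI array on the log2 MAS5 scale.

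Mrps14 (chromosome 1, 160195215 to 160201186) encodes the counterpart of the bacterial protein S14, a protein of the head of the small subunit. Its probe set was dim: MAS5 signals were 75.2, 46.8 and 67.9 in Gfi1-KD, against 99.6, 113 and 112 in Gfi1-KI, all below the level filter, a signal of 124. It was the only one of the 6 probe sets that did not pass this filter. The log2 RMA signals were 4.998, 5.13 and 5.09 in Gfi1-KD, against 5.55, 5.40 and 5.20 in Gfi1-KI. The size of its difference depended on the scale: -0.31 ± 0.11 in RMA and -0.80 ± 0.22 in log2 MAS5 signals (SE, n = 3 each). The order of the Gfi1-KD arrays turned round as well, with replicate 2 highest in RMA and lowest in MAS5. The probe set lies between bases 160200538 and 160201197, at the end of the gene and running past it, and 10 of its probes matched the RefSeq transcript. The array annotation gives an aligned share of 24.96% for this probe set, the lowest of the 6, with 63.56% for Mrpl57 the next.

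**Figure D1:**
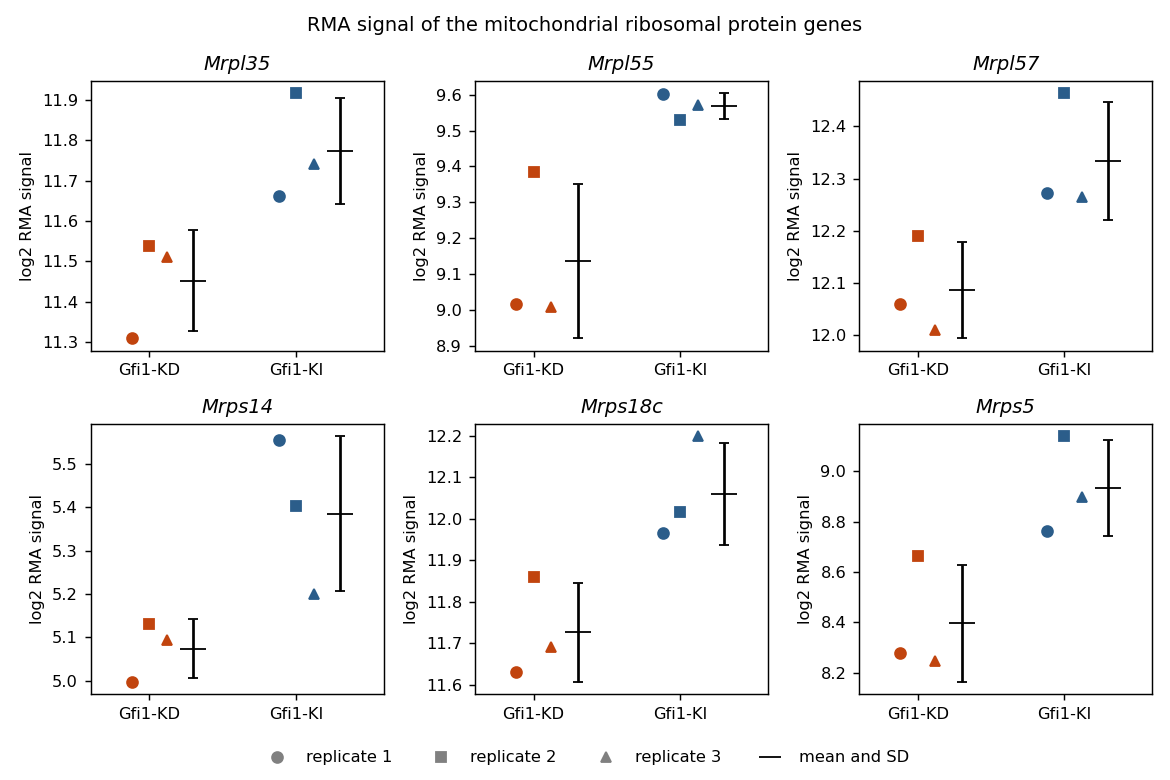
Log2 RMA signal (vertical axis, a separate range in each panel that does not start at 0) of the 6 genes on each array, Gfi1-KD left and Gfi1-KI right, with the mean and SD of 3 arrays beside the points. In each gene the Gfi1-KD points lie below every Gfi1-KI point, and replicate 2 (square) is the highest Gfi1-KD array.

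Among the large subunit proteins, Mrpl55 (chromosome 11, 59202486 to 59206138) encodes a protein that bacterial ribosomes lack. Its log2 RMA signals were 9.02, 9.38 and 9.01 in Gfi1-KD, against 9.60, 9.53 and 9.57 in Gfi1-KI. Its MAS5 signals were 1149, 1344 and 1094 in Gfi1-KD, against 1481, 1504 and 1481 in Gfi1-KI. The Gfi1-KI arrays lay close together and the Gfi1-KD arrays did not: the SD of the log2 RMA signal was 0.21 in Gfi1-KD and 0.04 in Gfi1-KI (n = 3 each). The difference was -0.43 ± 0.13 (SE), 1.35-fold lower, in RMA and -0.32 ± 0.09 in log2 MAS5 signals. On both scales the groups did not overlap.

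Mrpl35 (chromosome 6, 71812997 to 71823784) encodes the counterpart of the bacterial large subunit protein L35. Its MAS5 signals were 4323, 5462 and 4839 in Gfi1-KD, against 5609, 6579.9 and 5893 in Gfi1-KI. The log2 RMA mean was 11.45 ± 0.13 over the 3 Gfi1-KD arrays and 11.77 ± 0.13 over the 3 Gfi1-KI arrays (± SD), 1.25-fold lower with a difference of -0.32 ± 0.10 (SE). Its groups were separated by 0.12 in log2 RMA and by 0.04 in log2 MAS5 signals, between Gfi1-KD replicate 2 and Gfi1-KI replicate 1.

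Mrpl57 (chromosome 14, 57826228 to 57829087) encodes a small large-subunit protein, formerly called MRP63, that is also absent from bacterial ribosomes. Its MAS5 signals were 8939.85, 10124 and 8324 in Gfi1-KD, against 10320.5, 11413 and 10794 in Gfi1-KI. The log2 RMA mean was 12.09 ± 0.09 over the 3 Gfi1-KD arrays and 12.33 ± 0.11 over the 3 Gfi1-KI arrays (± SD). Its difference of -0.25 ± 0.08 (SE) was the smallest of the 6, and the gap between the groups was 0.07 in log2 RMA and 0.03 in log2 MAS5 signals. Gfi1-KD replicate 2 was again the highest of its group on both scales.

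**Figure D2:**
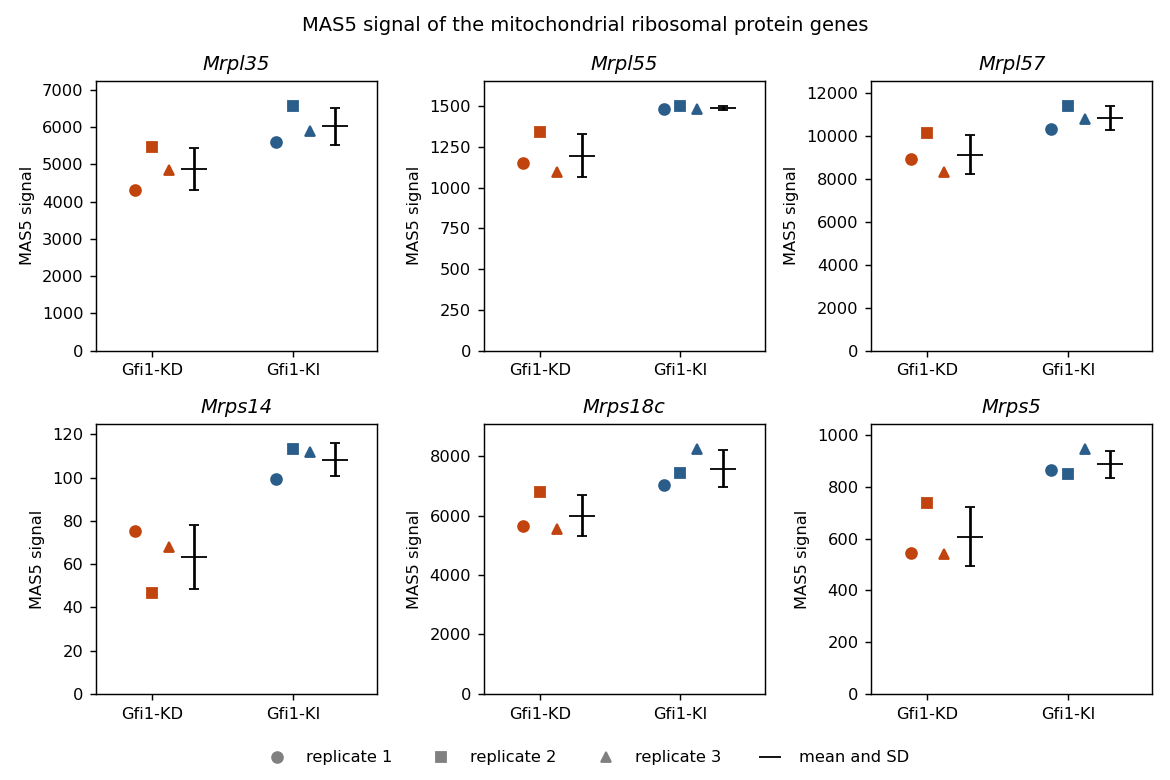
MAS5 signal (vertical axis, linear and from 0) of the same 6 genes on each array, Gfi1-KD left and Gfi1-KI right, with the mean and SD of 3 arrays beside the points. The groups do not overlap in any gene; Mrps14, with signals from 46.8 to 113, is the dim one.

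The RMA and MAS5 differences of the 5 brighter genes were closer to each other than those of Mrps14, as the plot of differences shows; among the 5 they lay furthest apart for Mrpl55, at -0.43 and -0.32. On both scales all 6 genes were lower in Gfi1-KD. With 1 array left out, the RMA difference of Mrps5 ran from -0.67 to -0.43 and that of Mrpl57 from -0.30 to -0.18. Since the groups of each gene did not overlap, leaving out an array could change the size of a difference but not its direction. Without Gfi1-KI replicate 2, the RMA differences were -0.25 (Mrpl35), -0.45 (Mrpl55), -0.18 (Mrpl57), -0.30 (Mrps14), -0.36 (Mrps18c) and -0.43 (Mrps5).

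**Figure D3:**
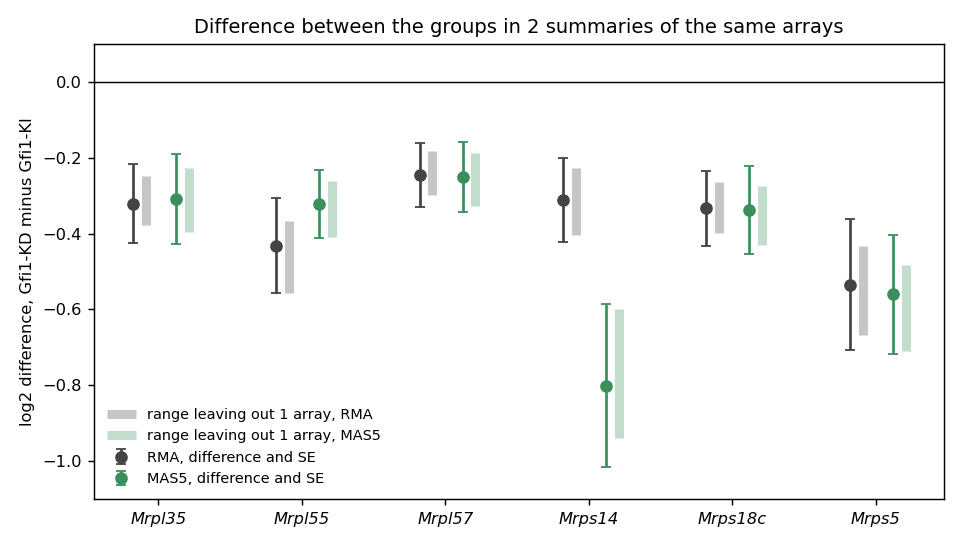
Log2 difference, Gfi1-KD minus Gfi1-KI (vertical axis), of each gene in RMA and in MAS5 signals, with the SE over 3 arrays a group as error bars and the range on leaving out 1 array as wide bars. All values lie below 0, and only the MAS5 value of Mrps14 (-0.80) lies far from the RMA value of its gene (-0.31).

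The separation of the groups can be read against the whole array. In the MAS5 signals the highest Gfi1-KD array was below the lowest Gfi1-KI array for 6 of the 6 genes, and this was so for 4.57% of the 22519 probe sets above the level filter and for 4.41% without the filter. Since the genes were chosen on the same arrays, nothing is read from this count. In the RMA signals the groups were apart for 100% of the 854 lower probe sets of the deposited table, the 6 genes included. The separation in MAS5 signals depended on how the arrays were scaled. When each array was centred on its median, 2 of the 6 genes (Mrps5 and Mrps14) still had groups that did not overlap, against 3.64% of all probe sets tested in that setting. The gap of Mrps5 was then 0.00135 on the log2 scale, so that its groups nearly touched, and Mrps14 is the dim probe set below the level filter. In Mrpl35, Mrpl55, Mrpl57 and Mrps18c the overlap came from Gfi1-KD replicate 2, the array with the lowest median signal, which then lay above the lowest Gfi1-KI array by 0.04 to 0.16 on the log2 scale. The differences of the means were nearly as before, from -0.28 for Mrpl57 to -0.83 for Mrps14.

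**Figure D4:**
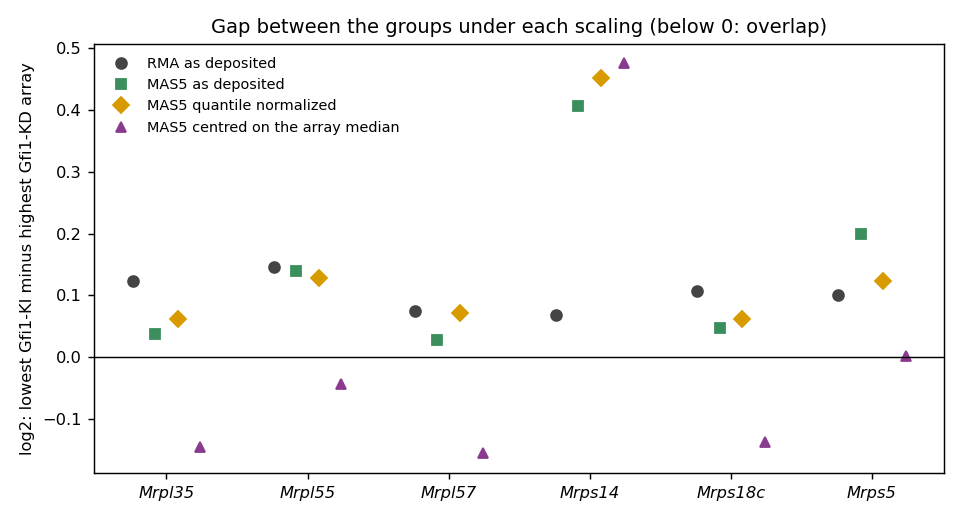
Gap between the groups, the lowest Gfi1-KI array minus the highest Gfi1-KD array on the log2 scale (vertical axis), for each gene under 4 scalings; values below 0 mean that the groups overlap. The gaps lie above 0 for all 6 genes in RMA, MAS5 as deposited and MAS5 after quantile normalization, and below 0 for 4 genes after centring on the array median.

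The fits over the whole table are given as a description, since they use the contrast that chose the genes. None of the 5 genes above the level filter was called by limma with Benjamini-Hochberg adjustment over all 22519 probe sets tested, with an adjusted p of 0.865 for each. The background was 0 called probe sets (0%). Before adjustment, 1217 probe sets (5.4%) had a limma p under 0.05, and 380 of them (1.69% of those tested) were lower in Gfi1-KD. Mrps5 was the 1 gene of the 5 among these. With an analysis of variance in place of limma, 1076 probe sets (4.78%) passed before adjustment, 426 of them (1.89% of those tested) lower in Gfi1-KD, and 1 passed after it. Before adjustment, 3 of the 5 genes were among the lower ones, Mrpl55, Mrps5 and Mrps18c. The probe set that passed after adjustment belongs to none of these genes, whose adjusted p was 0.887 each. In the authors' deposited table, the unadjusted p of the 6 genes ran from 0.0265 for Mrpl55 to 0.0474 for Mrps14, and the step-up adjusted p was 0.911 for each. Mrps14 thus stood just inside the threshold that made the table. Probe sets just outside it carry no gene name there and were not analysed here.

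The 6 genes shared their highest Gfi1-KD array, which their choice did not fix. Replicate 2 was the highest Gfi1-KD array for 6 of 6 genes in RMA signals and for 5 of 6 in MAS5 signals. Over the 854 lower listed probe sets it was the highest of its group in RMA for 44.6%. The lowest Gfi1-KD array was replicate 1 in 3 genes (Mrpl35, Mrps14 and Mrps18c) and replicate 3 in 3 (Mrpl55, Mrpl57 and Mrps5). In Gfi1-KI there was no shared highest array: it was replicate 2 for Mrpl35, Mrpl57 and Mrps5, replicate 1 for Mrpl55 and Mrps14, and replicate 3 for Mrps18c. The genes are measured on the same 6 arrays and are not independent replicates.

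The likeness of patterns was measured as the root mean square difference of log2 RMA signals over the 6 arrays, each probe set centred on its own mean, so that 0 is an equal pattern. Between pairs of the 6 genes it ran from 0.0858 (Mrpl35 and Mrpl57) to 0.231 (Mrps14 and Mrps5). The median over 1506 other listed genes ran from 0.233 for Mrpl57 to 0.391 for Mrps5. Of the listed probe sets, 57.1% were higher in Gfi1-KD and by their selection lie far from a lower gene. Genes that are all lower therefore tend to fall below this median, and nothing is read from that. For each of the 6, some gene among these many candidates was nearer than any other member. Among them, the nearest to Mrps18c was Tomm22, a receptor of the outer membrane through which mitochondrial proteins are imported (0.0306). The nearest to Mrpl35 were Ciapin1, a factor of iron-sulfur protein assembly in the cytosol (0.031), and Suz12, a Polycomb protein (0.034). Mrpl57 was nearest to Med14, a Mediator subunit (0.0125), and Srsf10, a splicing factor (0.0265). Mrps5 was nearest to Wee1, a kinase that holds back entry into mitosis (0.0737), and Nup50, a nuclear pore protein (0.0798). Mphosph6 was near to Mrpl55 (0.0711), the nearest to Mrps14 were Astn1 (0.0403) and Mmp14 (0.0635), and the second for Mrps18c was Lnpk (0.0347). Each of these genes was lower in Gfi1-KD, as listed genes with a pattern like that of the members must be.

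The bases before the transcription start of the 6 genes were looked up in RefSeq (build GRCm38.p6), which held a promoter for each of the 6. In 250 bases, GC content ran from 44.4% (Mrpl35) to 66.8% (Mrps5), with a median of 52.4% over all 32851 promoters of the table. They were searched on both strands for letters known from promoters of mitochondrial genes and for a GFI1 site. These were CCGGAAG (ETS factors such as GABP), GCATGCGC (NRF1), AAGATGG (YY1), CACGTG (E-box) and AAATCAC (GFI1). Mrps18c held CACGTG at base -163 and, after 1 base between them, CCGGAAG on the other strand from base -156. These letters stand in 6.02% and 6.91% of all promoters of that length. None of the other 5 genes held any of the motifs in this window, which says only that these letters are not in it. For Mrpl57 the window before the start ends at base 57826238, past the gene start of 57826228 given above, so its positions count from a later start. Just after the start used for each gene, Mrpl35 held AAGATGG at base 24 and, on the other strand, at base 37, and Mrpl57 held CCGGAAG at base 5. Over the longer window that includes these bases, AAGATGG is in 6.34% and CCGGAAG in 8.86% of all promoters. Over the window before the start, GCATGCGC is in 2.26%, AAGATGG in 4.49% and AAATCAC in 2.75% of all promoters. The sequences of Mrps18c (chr5:100798509-100798758, plus strand) and, for comparison, of Mrps5 (chr2:127587176-127587425, plus strand), the gene with the largest RMA difference, are shown with matches in capitals.
Mrps18c: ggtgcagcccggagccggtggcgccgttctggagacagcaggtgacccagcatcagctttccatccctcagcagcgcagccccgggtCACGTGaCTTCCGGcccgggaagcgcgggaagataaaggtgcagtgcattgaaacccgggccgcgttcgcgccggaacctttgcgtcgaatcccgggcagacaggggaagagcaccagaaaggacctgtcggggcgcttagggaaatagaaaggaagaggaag
Mrps5: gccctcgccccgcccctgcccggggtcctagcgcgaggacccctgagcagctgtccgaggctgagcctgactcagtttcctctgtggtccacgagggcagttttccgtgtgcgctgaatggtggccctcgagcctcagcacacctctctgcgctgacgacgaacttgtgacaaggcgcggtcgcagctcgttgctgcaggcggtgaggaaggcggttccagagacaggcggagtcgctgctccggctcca

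Of 83 genes on a list of the mitochondrial ribosome, these 6 (7.23%) were named by the deposited table, 3 of 33 of the small and 3 of 50 of the large subunit. The other 77 are named by no listed probe set and their levels were not analysed here. Of all probe sets of the array, 4.41% are listed there, and 1.89% are listed as lower in Gfi1-KD. These are shares of probe sets, while 7.23% is a share of genes, and a gene can have several probe sets. The listed share of all genes of the array was not computed, so no excess of this family is read from these values. On 6 further lists of mitochondrial gene expression, respiration and import, 9 of 188 genes (4.79%) were named, 5 lower and 4 higher in Gfi1-KD.

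Mterf4, which acts in the assembly of the large ribosomal subunit, was the only listed gene of 23 assembly factors. Its log2 RMA signals were 8.19, 8.43 and 8.29 in Gfi1-KD, against 8.47, 8.73 and 8.84 in Gfi1-KI, a difference of -0.38 ± 0.13 (SE, n = 3 each). Ndufv3, a subunit of respiratory complex I and the only listed gene of 76 on the oxidative phosphorylation list, was 1.34-fold lower, with 11.74, 11.90 and 11.75 in Gfi1-KD, against 12.06, 12.36 and 12.25 in Gfi1-KI. Of 36 import and proteostasis genes, 3 were lower: Pmpca, a subunit of the peptidase that cuts import signals (1.27-fold lower), Tomm22 (1.24-fold lower) and Tomm40, the channel of the outer membrane (1.18-fold lower). The import receptor gene Tomm70a was 1.27-fold higher. In each of the 5 lower genes, Gfi1-KD replicate 2 was the highest array of its group, as in the ribosomal protein genes.

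The other listed genes of these lists were higher in Gfi1-KD. Top1mt, the topoisomerase of mitochondrial DNA, was 1.42-fold higher, with 8.32, 8.44 and 8.64 in Gfi1-KD, against 8.14, 7.74 and 8.01 in Gfi1-KI. Ssbp1, which binds single-stranded mitochondrial DNA, was 1.18-fold and Ears2, the glutamyl-tRNA synthetase of mitochondria, 1.21-fold higher; both probe sets were below the MAS5 level filter, and their groups overlapped in MAS5 signals. Of the 16 translation factors none was listed. As these genes too were selected by p on these arrays, their count is no evidence for a direction.

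**Figure D5:**
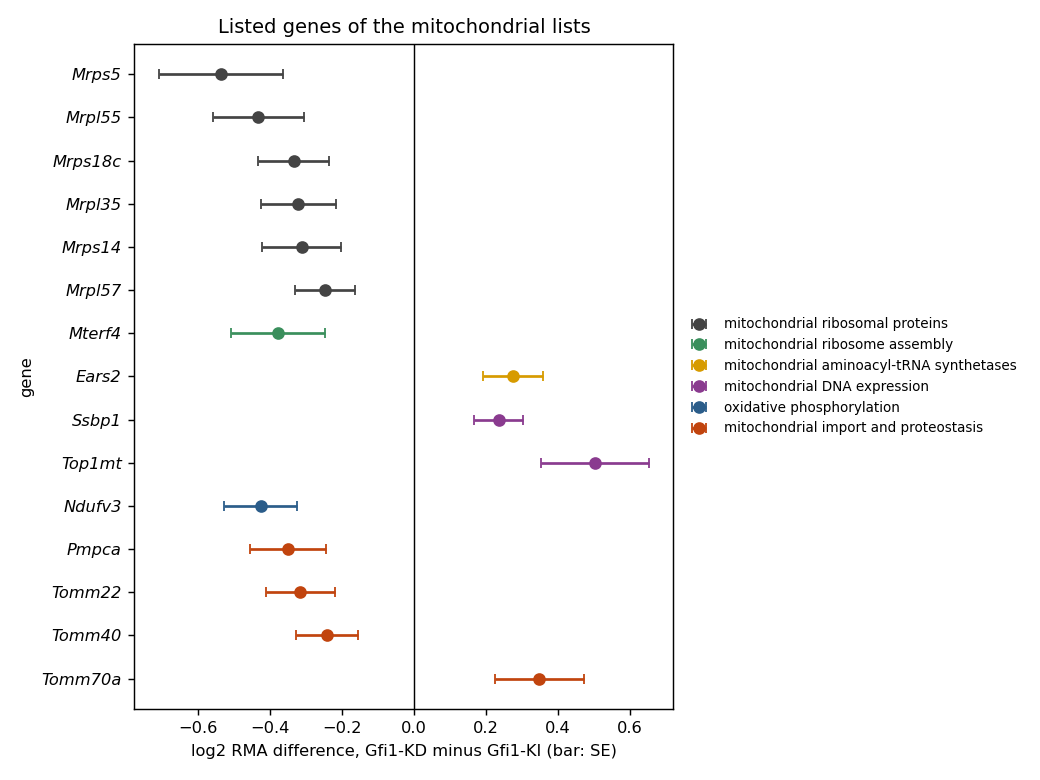
Log2 RMA difference, Gfi1-KD minus Gfi1-KI (horizontal axis, with the SE over 3 arrays a group), of the 6 ribosomal protein genes and the 9 other listed genes of mitochondrial lists, coloured by list. The 6 ribosomal protein genes, Mterf4, Ndufv3, Pmpca, Tomm22 and Tomm40 lie below 0, and Ears2, Ssbp1, Top1mt and Tomm70a above 0.

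Some markers of cell types were named by the deposited table. They were selected by p on these arrays, so that they differ between the groups is a condition of their listing. Of all probe sets of the array, 4.41% are listed. The levels of markers that are not listed were not analysed here. The sums below cover listed probe sets only, and Csf1r and Cx3cr1 enter with several probe sets each. Of 12 late neutrophil genes, 2 were listed, Ltf and Lrg1, both lower, and their summed MAS5 signal lay between 309 and 4269 on Gfi1-KD arrays and between 18375 and 38877 on Gfi1-KI arrays. Of 10 monocyte genes, 5 were listed, all higher (Csf1r, Ccr2, Ctss, Adgre1 and Cx3cr1), with a summed signal over 8 probe sets between 73685 and 111267 on Gfi1-KD arrays and between 33265 and 56611 on Gfi1-KI arrays. Of 7 B cell genes, Pax5 was listed, higher in RMA, while its MAS5 signals overlapped, at 90.4 to 117 on Gfi1-KD arrays and 23.2 to 129.6 on Gfi1-KI arrays. None of 9 erythroid and 5 progenitor genes was listed. On Gfi1-KD replicates 1, 2 and 3, the log2 RMA signals were 10.49, 10.32 and 6.70 for Ltf and 8.57, 10.07 and 7.30 for Lrg1. Lrg1 was highest on replicate 2, as the 6 ribosomal protein genes were, and lowest on replicate 3, as Mrpl55, Mrpl57 and Mrps5 were. Ltf was highest on replicate 1 and lowest on replicate 3. The monocyte gene Ctss had 14.04, 13.71 and 14.15 on the same arrays and was lowest on replicate 2. Csf1r, Adgre1 and Cx3cr1 were also lowest on replicate 2, but Ccr2 went the other way and was highest there. The part of cell composition in the values of the ribosomal protein genes was not tested.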

How the data were processed

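Per the labels' protocols, 200 ng of total RNA per sample were labelled with biotin. Groups follow the labels; replicate numbers give only the order of deposit and pair no samples. The deposited value table holds linear intensities; the submitters' processing notes name MAS5, without a version. Per the file headers, the authors' comparison table gives log2 RMA signals per array, an analysis of variance p-value of kd against wt and its step-up adjustment. Its other deposited columns used here are a kd over wt ratio and the fold as a signed score. The samples fall into Gfi1-KD and Gfi1-KI alone, so wt was taken to mean Gfi1-KI. The ratio recomputed from the RMA signals differed by at most 0.0045% in any filled row. Symbols were updated through the Entrez identifier with RefSeq genes of GRCm38.p6.

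MAS5 signals were set to at least 1 and log2 was taken. limma (3.58.1, R 4.3.3; lmFit, eBayes with trend, two-sided) was run on 22519 probe sets with a mean log2 signal of at least 6.95, with Benjamini-Hochberg adjustment and a threshold of 0.05, and was tested on simulated data. SEs come from the SDs of both groups. Tables and figures used Python 3.11.15, pandas 2.3.3, numpy 2.4.6 and matplotlib 3.10.9. Named genes were the 6 members, the listed genes of each list, with values for up to 4 of a list (those with the highest RMA signal), and the 2 listed genes nearest in pattern to each member. A gene that this rule names is not reported here. The members and lists were chosen with earlier results of these data known. RefSeq proteins, planned for a comparison of sequence, were not used here. Alternatives were other scalings, constants, filters and tests, and each array left out.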

Additional observations from a re-analysis of the deposited data

How the results depend on the processing

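All 108 alternative values of the log2 differences of the 6 genes were negative, as in the report. Those with 1 array left out, a constant added or MAS5 in place of RMA had to be, since the groups of each gene did not overlap on either scale. The values with MAS5 in place of RMA only repeat the MAS5 differences. With 1 array left out, the RMA differences ran from -0.38 to -0.25 (Mrpl35), -0.56 to -0.37 (Mrpl55), -0.30 to -0.18 (Mrpl57), -0.40 to -0.23 (Mrps14), -0.40 to -0.26 (Mrps18c) and -0.67 to -0.43 (Mrps5), and the MAS5 differences from -0.39 to -0.23, -0.41 to -0.26, -0.33 to -0.19, -0.94 to -0.60, -0.43 to -0.27 and -0.71 to -0.48 in the same order of genes. Centring the RMA signals on the median of the listed probe sets moved all 6 differences further below 0 by the same amount. They were then -0.44 (Mrpl35), -0.55 (Mrpl55), -0.37 (Mrpl57), -0.43 (Mrps14), -0.46 (Mrps18c) and -0.66 (Mrps5). The listed probe sets were selected on this contrast, and 57.1% of them were higher in Gfi1-KD. Their median is therefore no neutral reference, and nothing is read from the shift. For Mrps14, MAS5 in place of RMA gave -0.80, and adding 64 to the MAS5 signal gave -0.44; its signals of 46.8 to 113 lie near that constant. After centring on the array median, 2 member probe sets kept groups that did not overlap. limma called 0 probe sets under each setting and the analysis of variance 1. The count of probe sets lower in Gfi1-KD without overlap was 1987 without a level filter and 560 with a stricter one, which test more and fewer probe sets, and 1735 to 2449 with 1 array left out, where fewer arrays must be apart. No paired analysis was possible because the labels give no pairing of the samples. The dim signal of Mrps14 limits what its values show, and the files used here hold no detection calls.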
